A study of Mus musculus with 6 samples.

Results

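DNA replication depends on a set of proteins that mark origins, unwind the helix, copy both strands and rebuild chromatin behind the fork, and the transcripts of 53 genes that encode them were compared in RAW264.7, a dividing mouse cell line of macrophage type. Members were chosen by name from their known roles, with earlier results of these data already known. They are the rows of the deposited table with those gene names, and all 53 were found among its 56748 genes. In 3 libraries the cells had been infected with lentivirus of the vector pMSCV-Fbxw11-pGk-GFP, and in the other 3 with that of the control vector, whose library names carry GFP. What the control vector holds is not described, no time after infection is given, and cells of both groups were sorted before RNA was taken, on a basis the labels leave out. The groups are called Fbxw11 and control libraries. The Fbxw11 protein, also known as β-TrCP2, binds the substrates of an SCF ubiquitin ligase. Separate infections or cultures are not named for the libraries of a group, and p-values therefore measure a spread between libraries that may be technical. RAW264.7 is 1 transformed line, and nothing here was measured in primary macrophages.

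Replication runs in an ordered series of steps. The origin recognition complex, Cdc6 and Cdt1 load the hexamer of Mcm2 to Mcm7 onto DNA in G1 phase, a step called licensing that geminin blocks later in the cycle. The kinase Cdc7 with Dbf4 and a set of firing factors then add Cdc45 and GINS, which turns the hexamer into an active helicase in S phase. Polymerases alpha, delta and epsilon copy the strands, and the clamp PCNA holds delta and epsilon. In textbook descriptions many of these genes are transcribed most around the entry into S phase, under E2F transcription factors.

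Levels are given in FPKM, a count of fragments relative to the gene's length and the library's size, which can be compared between genes as levels per length. Differences are log2 fold changes, Fbxw11 minus control, on log2(FPKM + 1), with the standard error (SE) and limma's Benjamini-Hochberg adjusted p over the 10898 genes whose mean level was 1 FPKM or more. "Fell" and "rose" are used for genes at an adjusted p of at most 0.05. Library values are given in the order 1 to 3. Recovered reads numbered between 16191971 and 18951653 per library, with 100% of values above 0 within 0.02 of a whole read. Fbxw11 itself read 35.8, 36.5 and 36.00 FPKM in the control libraries and 274, 272 and 268 FPKM in the Fbxw11 libraries, the direction that the labels give, with vector and endogenous reads not told apart. Of 10 macrophage markers all were detected in every library, the lowest value being 19.3 FPKM for Itgam. Their summed level was 4309 to 4477 FPKM in control and 4777 to 4907 FPKM in Fbxw11 libraries, with Lyz2 and Cd14 the highest in it. Csf1r went the other way, at 151 to 159 FPKM in control and 145 to 150 FPKM in Fbxw11 libraries. None of 5 T cell, 4 epithelial, 4 erythroid or 5 fibroblast markers reached 1 FPKM in any library. Of 5 neutrophil markers S100a8 was detected, at up to 5.66 FPKM, and the other 4 were listed at 0. The 4 B cell markers summed to 6.40 to 6.70 FPKM in control and 4.87 to 6.20 FPKM in Fbxw11 libraries. The part of these marker levels in the results that follow was not tested.

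Since members of this gene class are known to carry E2F sites close to their starts, the windows from 250 bases before to 50 bases after the start were read from RefSeq (GRCm38.p6) for the 43 members that the table holds, 52 windows in all. The 4 members with the smallest p among these 43 were Mcm6, Mcm7, Mcm10 and Topbp1. Their windows are shown with that of Orc3, a member that did not pass the test and was picked by hand. Each is written 5′ to 3′ on the gene's strand, with the E2F letters TTTCCCGC, TTTGGCGC, TTTCGCGC and TTTGCCGC, or their reverse complements, in capitals.
Mcm6 (chr1:128359656-128359955, minus strand): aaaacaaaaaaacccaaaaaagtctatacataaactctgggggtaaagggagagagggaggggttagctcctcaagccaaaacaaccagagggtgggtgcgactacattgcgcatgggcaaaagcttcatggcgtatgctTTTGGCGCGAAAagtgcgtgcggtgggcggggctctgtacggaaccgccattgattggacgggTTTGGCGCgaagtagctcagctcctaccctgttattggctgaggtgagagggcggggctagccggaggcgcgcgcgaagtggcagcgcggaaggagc
Mcm7 (chr5:138171834-138172133, minus strand): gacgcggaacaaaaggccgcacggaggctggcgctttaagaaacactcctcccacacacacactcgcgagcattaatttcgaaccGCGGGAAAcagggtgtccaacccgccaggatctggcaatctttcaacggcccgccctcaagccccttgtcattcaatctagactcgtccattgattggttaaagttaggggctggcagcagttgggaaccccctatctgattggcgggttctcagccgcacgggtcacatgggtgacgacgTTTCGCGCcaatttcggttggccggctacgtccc
Mcm10 (chr2:5012742-5013041, minus strand): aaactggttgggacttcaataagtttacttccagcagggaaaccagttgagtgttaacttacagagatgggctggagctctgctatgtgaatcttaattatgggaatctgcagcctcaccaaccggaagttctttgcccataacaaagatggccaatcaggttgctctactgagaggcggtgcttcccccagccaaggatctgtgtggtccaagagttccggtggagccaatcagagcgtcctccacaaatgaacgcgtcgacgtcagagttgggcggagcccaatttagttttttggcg
Topbp1 (chr9:103305077-103305376, plus strand): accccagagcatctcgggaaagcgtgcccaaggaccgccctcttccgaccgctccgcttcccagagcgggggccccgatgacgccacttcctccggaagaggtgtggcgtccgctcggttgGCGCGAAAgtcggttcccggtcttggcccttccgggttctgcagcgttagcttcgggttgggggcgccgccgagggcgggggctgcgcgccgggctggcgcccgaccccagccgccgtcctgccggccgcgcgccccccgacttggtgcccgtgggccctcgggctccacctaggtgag
Orc3 (chr4:34614893-34615192, minus strand): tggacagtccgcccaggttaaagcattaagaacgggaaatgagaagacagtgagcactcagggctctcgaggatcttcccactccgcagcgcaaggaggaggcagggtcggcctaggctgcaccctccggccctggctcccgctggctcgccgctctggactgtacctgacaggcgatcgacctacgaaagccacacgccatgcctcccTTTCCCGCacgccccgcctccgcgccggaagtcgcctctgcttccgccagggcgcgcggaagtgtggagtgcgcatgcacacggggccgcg
Mcm6 held 3 matches, which begin at -110, -106 and -47 from the start. The first 2 overlap on opposite strands. Mcm7 held 2, at -165 and 17, and its other listed window held none. Topbp1 held 1 at -129, Orc3 held 1 at -41, and Mcm10 held none of these letters in full. The Mcm10 window ends with all but the last letter of TTTGGCGC, and a match that crosses the window's end was not counted.

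Across the members, 17 of 52 windows held at least 1 of the E2F octamers on either strand (32.7%). The share was 4.18% of the 10049 windows of tested genes and 2.26% of all 32851 windows. The 17 windows belong to 17 genes, of which 14 fell and 3, Orc3, Gins3 and Pold3, did not pass. Among the 26 members without such letters 17 fell and 9 did not pass. Orc3, printed above, thus differs from most members that did not pass. Over all genes tested 4.64% fell, a share that was not split by motif. The median log2 fold change was -0.41 with and -0.34 without the letters, and both ranges ran from below -0.63 to above -0.04. A member without these letters in full may still hold another form of the site or a site outside the window. The 10 members that have no window are in neither group. The NF-Y box CCAAT stood in 26 of 52 member windows and in 37.8% of tested genes' windows. The letters TTTGAA of the CHR element, known from genes that peak in G2 and M phase, stood in 8 member windows (15.4%) and in 12.5% of tested genes' windows. Of 7 members with the CHR letters 2 fell, and of 36 without them 29 fell. For the NF-Y box 20 of 24 members with it fell and 11 of 19 without it. None of the splits by motif was tested. A match describes these letters and does not show binding.

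Of the 53 replication genes, 41 fell in the Fbxw11 libraries, 12 did not pass and 0 rose. Over all 10898 genes tested 4.64% fell and 4.60% rose, 9.24% in either direction. With voom on recovered reads the count of rises was also 0. On the TPM scale 712 of all genes fell and 348 rose, and over plain read sums 691 fell and 381 rose, against 506 and 501 here, while 41 members fell on each of these scales. Every one of the 53 had a log2 fold change below 0, so the count of rises is 0 at any p threshold. The median was -0.38 over the members and 0.0029 over all genes tested. In 49 members each Fbxw11 library lay below each control library, which held for 15.5% of all genes tested, and 4 members had overlapping groups. No member lay higher in all Fbxw11 libraries (15.6% of all genes did). Of the 12 that did not pass, 8 also had groups that did not overlap. Without control library 2 the number that fell was 26, and without both libraries numbered 3 it was 27. The shares of all genes tested that fell in these fits were 2.01% and 3.08%.

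Summed over the 53 genes, the level was 799.9 to 827 FPKM in the control libraries and 605 to 614 FPKM in the Fbxw11 libraries. These genes took 0.335% to 0.346% of recovered reads in control and 0.246% to 0.249% in Fbxw11 libraries. The 3 libraries of a group were close to each other on this sum, and the gap between the groups was wider than the range within either. The median member stood -0.36, -0.41 and -0.37 (log2) from its control mean in Fbxw11 libraries 1 to 3, so no single Fbxw11 library carried the difference. In bulk RNA a smaller share of cells in S phase and less of these transcripts in each cell cannot be told apart.

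**Figure D1:**
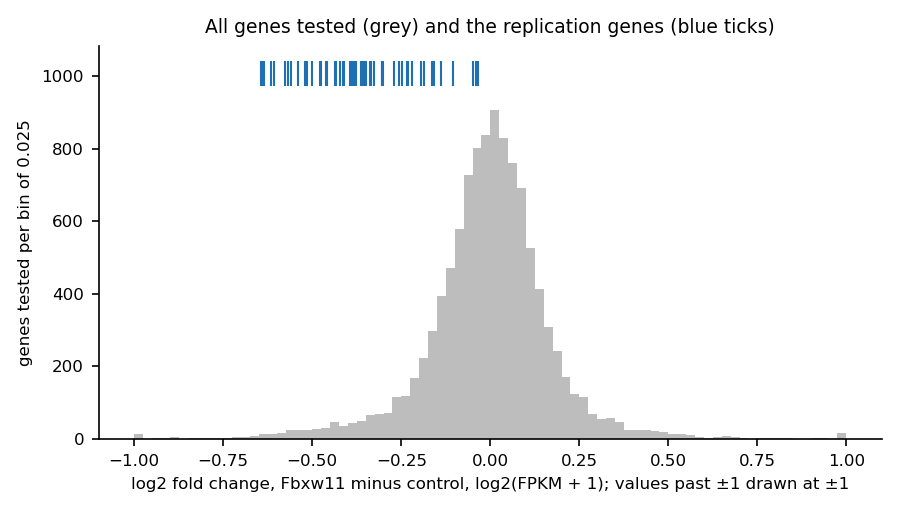
Distribution of log2 fold changes (Fbxw11 minus control, log2(FPKM + 1)) for the 10898 genes tested, as grey bars counting genes per bin of 0.025, with each of the 53 replication genes as a blue tick above. The ticks lie between -0.64 and -0.034, all left of 0.

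All 8 Mcm genes among the members fell. Mcm9, which is not a member, did not pass (adjusted p = 0.219, log2 fold change 0.11). Mcm2 to Mcm7 encode the 6 subunits of the replicative helicase, Mcm10 helps to activate it, and Mcm8 belongs to a separate helicase of recombination repair. The 8 genes had a summed level of 246 to 262 FPKM in the control libraries and 172 to 175 FPKM in the Fbxw11 libraries. Mcm6 read 56.3, 57.4 and 59.2 FPKM in the control libraries and 36.7, 36.7 and 36.2 FPKM in the Fbxw11 libraries (adjusted p = 0.000377, log2 fold change -0.64, SE 0.032). The Fbxw11 values differed from each other by less than 1 FPKM, and all lay far below the lowest control library. Mcm7 read 25.05, 25.2 and 25.5 FPKM in the control libraries and 17.5, 16.7 and 17.1 FPKM in the Fbxw11 libraries (adjusted p = 0.000669, log2 fold change -0.54, SE 0.033). Mcm4 stood at 35.6, 38.01 and 38.8 FPKM in the control libraries and 23.2, 23.9 and 25.2 FPKM in the Fbxw11 libraries (adjusted p = 0.00126, log2 fold change -0.62, SE 0.047). Neither group of libraries overlapped the other for these 3 genes.

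The remaining 5 genes also fell, with ratios of mean levels from 0.592 to 0.751. Mean levels went from 21.9 ± 0.686 to 16.4 ± 0.306 FPKM for Mcm2 (SD, n = 3 libraries), from 68.9 ± 2.72 to 50.7 ± 1.57 FPKM for Mcm3 and from 30.7 ± 2.53 to 21.3 ± 0.460 FPKM for Mcm5. Mcm10 went from 6.85 ± 0.330 to 4.06 ± 0.214 FPKM, the lowest ratio of means in this group. Mcm8 went from 5.47 ± 0.255 to 3.66 ± 0.455 FPKM (adjusted p = 0.0152, log2 fold change -0.48, SE 0.079). Its call was lost without control library 1 or 2 or Fbxw11 library 1.

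Although the 6 hexamer subunits assemble in equal numbers, their transcripts did not stand at equal levels. In control libraries the order was Mcm3, Mcm6, Mcm4, Mcm5, Mcm7 and Mcm2, from 68.9 down to 21.9 FPKM, with no overlap between neighbours. The order of means was the same in Fbxw11 libraries, from 50.7 to 16.4 FPKM, where Mcm7 and Mcm2 overlapped. Ratios of mean levels, Fbxw11 over control, ran from 0.634 for Mcm6 to 0.751 for Mcm2. The level of Mcm6 over that of Mcm2 was 2.58, 2.71 and 2.62 in the control libraries and 2.19, 2.27 and 2.22 in the Fbxw11 libraries, a pair chosen after the values were seen. These are the genes with the lowest and the highest ratio of the 6, so the gap between the groups follows from that choice and is given as a description.

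**Figure D2:**
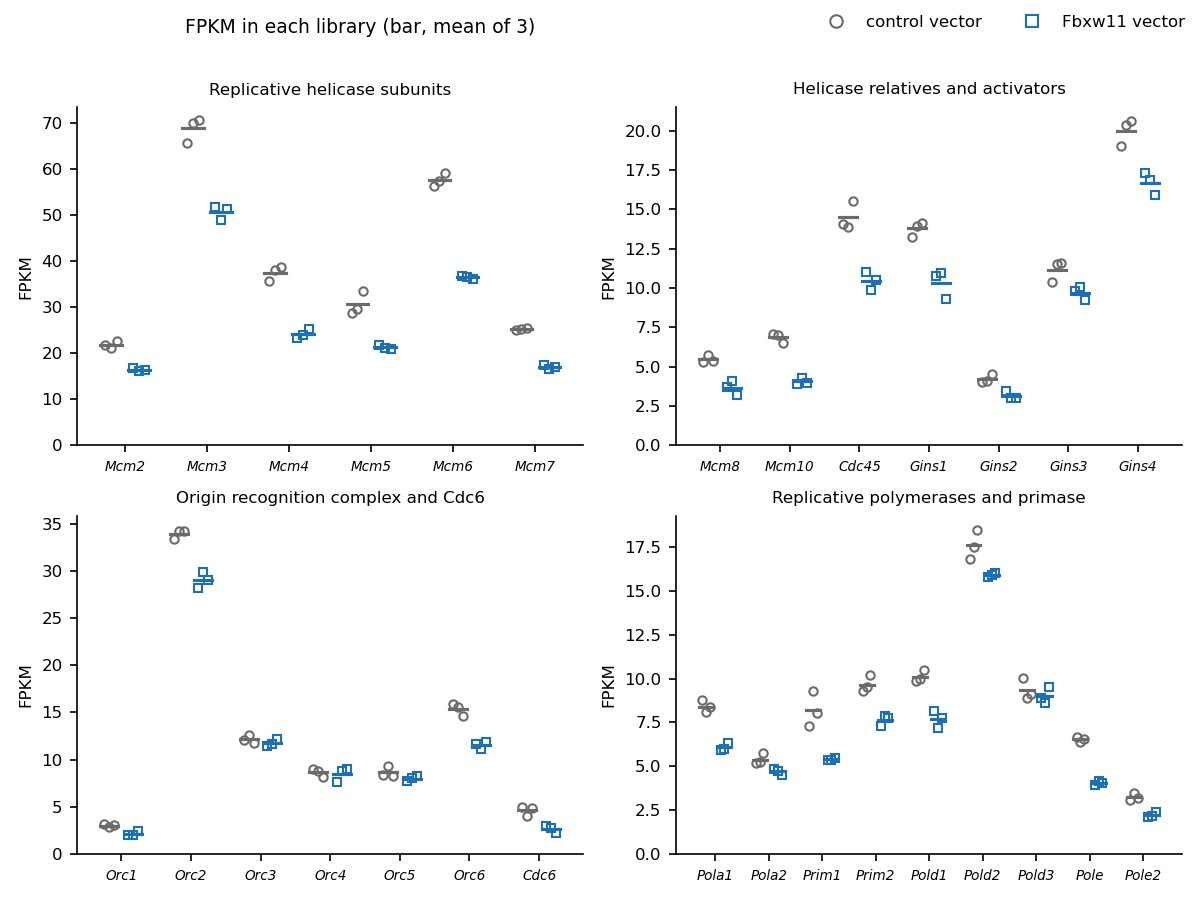
FPKM of 29 replication genes in each library on linear axes from 0, with grey circles for the 3 control libraries, blue squares for the 3 Fbxw11 libraries and bars for group means. Mcm2 to Mcm7 separate fully, Orc3, Orc4 and Pold3 overlap between groups, and the other genes drawn separate with gaps of differing width.

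Cdc45 and the 4 GINS subunits join the hexamer to make the active helicase. Of these 5 genes 4 fell, Gins3 did not pass, and all 5 had groups that did not overlap. Cdc45 read 14.05, 13.9 and 15.5 FPKM in the control libraries and 11.03, 9.84 and 10.5 FPKM in the Fbxw11 libraries (adjusted p = 0.00817, log2 fold change -0.44, SE 0.059). Gins1 read 13.3, 13.97 and 14.2 FPKM in the control libraries and 10.8, 10.9 and 9.33 FPKM in the Fbxw11 libraries (adjusted p = 0.0152, log2 fold change -0.39, SE 0.064), a call lost without control library 2. Gins4 stood at 19.1, 20.4 and 20.6 FPKM in the control libraries and 17.3, 16.9 and 15.9 FPKM in the Fbxw11 libraries (adjusted p = 0.0243, log2 fold change -0.25, SE 0.047). Its call was lost without control library 2 or 3 or Fbxw11 library 2 or 3. Gins2 went from 4.22 ± 0.273 to 3.14 ± 0.253 FPKM (adjusted p = 0.0282), lost under each single-library omission except that of Fbxw11 library 1. For Gins3 the values were 10.4, 11.5 and 11.6 FPKM in the control libraries and 9.79, 10.05 and 9.23 FPKM in the Fbxw11 libraries (adjusted p = 0.0938, log2 fold change -0.19, SE 0.056). Its highest Fbxw11 value, 10.05 FPKM, lay just under its lowest control value.

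Of 9 genes of origin recognition and licensing 6 fell. The 6 Orc proteins bind origins as a complex, of which Orc1 is the part best known to vary with the cell cycle. Of the 6 Orc genes, Orc1, Orc2 and Orc6 fell and Orc3, Orc4 and Orc5 did not pass, and the difference between these subunits was not tested. Orc6 read 15.9, 15.5 and 14.6 FPKM in the control libraries and 11.7, 11.2 and 11.8 FPKM in the Fbxw11 libraries (adjusted p = 0.0044, log2 fold change -0.38, SE 0.044). Orc2 read 33.4, 34.2 and 34.2 FPKM in the control libraries and 28.2, 29.9 and 29.05 FPKM in the Fbxw11 libraries (adjusted p = 0.0132, log2 fold change -0.22, SE 0.035), with its call lost without control library 2. Orc1 went from 3.002 ± 0.162 to 2.13 ± 0.231 FPKM (adjusted p = 0.0304, log2 fold change -0.36, SE 0.073), resting on 113 reads in its lowest library. That call was lost under each single-library omission except that of Fbxw11 library 3.

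The 3 Orc genes that did not pass lay close to their control levels. Orc3 read 12.1, 12.6 and 11.7 FPKM in the control libraries and 11.5, 11.7 and 12.2 FPKM in the Fbxw11 libraries (adjusted p = 0.627, log2 fold change -0.039, SE 0.043). Orc4 read 9.04, 8.79 and 8.18 FPKM in the control libraries and 7.61, 8.76 and 9.03 FPKM in the Fbxw11 libraries (adjusted p = 0.813, log2 fold change -0.034, SE 0.069). The groups overlapped for both, and the sign for Orc4 turned without Fbxw11 library 1, to 0.0334. Orc5 read 8.39, 9.31 and 8.30 FPKM in the control libraries and 7.69, 8.03 and 8.25 FPKM in the Fbxw11 libraries (adjusted p = 0.295, log2 fold change -0.10, SE 0.054), with groups that did not overlap but nearly touched. Within each library the level of Orc1 over that of Orc3 was 0.261, 0.224 and 0.259 in the control libraries and 0.174, 0.171 and 0.196 in the Fbxw11 libraries. The level of Orc6 over that of Orc3 was 1.32, 1.23 and 1.25 in the control libraries and 1.02, 0.958 and 0.971 in the Fbxw11 libraries. Both ratios were lower in every Fbxw11 library, and both pairs were chosen after the values were seen, so no test is given.

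The loading factors around the complex fell. Cdt1, which brings the hexamer to origins, read 25.8, 27.3 and 27.6 FPKM in the control libraries and 20.9, 19.9 and 21.6 FPKM in the Fbxw11 libraries (adjusted p = 0.00609, log2 fold change -0.35, SE 0.045). Cdc6, the ATPase that acts with it, went from 4.62 ± 0.524 to 2.62 ± 0.415 FPKM. This was the lowest ratio of means among all 53 genes, 0.566 (adjusted p = 0.0159, log2 fold change -0.64, SE 0.11), though its call was lost without control library 1 or Fbxw11 library 2. Gmnn encodes geminin, the inhibitor of Cdt1, and went from 11.4 ± 1.54 to 7.63 ± 0.997 FPKM (adjusted p = 0.0378, log2 fold change -0.52, SE 0.11). Loader and inhibitor transcripts were thus both lower. The call for Gmnn was lost under each single-library omission except that of control library 3.

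Of 5 firing factor genes 3 fell. Topbp1, Recql4 and Ticrr encode factors that help to load Cdc45 and GINS, and all 3 fell. Topbp1 read 9.76, 9.53 and 9.37 FPKM in the control libraries and 6.84, 6.82 and 6.98 FPKM in the Fbxw11 libraries (adjusted p = 0.00179, log2 fold change -0.42, SE 0.037). Recql4 read 8.32, 8.40 and 7.93 FPKM in the control libraries and 6.48, 5.66 and 6.18 FPKM in the Fbxw11 libraries (adjusted p = 0.00953, log2 fold change -0.38, SE 0.054), lost without control library 2. Ticrr, which encodes treslin, stood at 1.99, 2.14 and 2.06 FPKM in the control libraries and 1.58, 1.26 and 1.39 FPKM in the Fbxw11 libraries (adjusted p = 0.0335, log2 fold change -0.35, SE 0.074) and lost its call under each single-library omission except that of Fbxw11 library 1. The groups did not overlap for any of the 3. Cdc7, the kinase that starts firing, read 5.02, 5.86 and 4.93 FPKM in the control libraries and 4.32, 4.65 and 4.78 FPKM in the Fbxw11 libraries (adjusted p = 0.212, log2 fold change -0.17, SE 0.070). Its activator Dbf4 read 7.11, 7.43 and 6.51 FPKM in the control libraries and 5.09, 6.14 and 6.31 FPKM in the Fbxw11 libraries (adjusted p = 0.149, log2 fold change -0.23, SE 0.083). Neither passed, though Dbf4 did with voom on recovered reads (adjusted p = 0.0408), and for both the highest Fbxw11 library lay below the lowest control library.

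Of the 9 polymerase and primase genes 6 fell and 3 did not pass. Pole and Pole2 encode the catalytic and second subunits of polymerase epsilon, the leading-strand enzyme. Pole read 6.67, 6.36 and 6.58 FPKM in the control libraries and 3.96, 4.19 and 4.02 FPKM in the Fbxw11 libraries (adjusted p = 0.0012, log2 fold change -0.58, SE 0.043). Pole2 went from 3.24 ± 0.220 to 2.22 ± 0.155 FPKM (adjusted p = 0.0157, log2 fold change -0.39, SE 0.066) and lost its call without control library 2 or Fbxw11 library 1 or 2. Polymerase alpha and primase begin each new strand. Pola1, the catalytic subunit, read 8.76, 8.08 and 8.38 FPKM in the control libraries and 5.92, 5.97 and 6.34 FPKM in the Fbxw11 libraries (adjusted p = 0.00432, log2 fold change -0.41, SE 0.047). The primase genes Prim1 and Prim2 went from 8.20 ± 1.01 to 5.41 ± 0.0767 FPKM and from 9.66 ± 0.468 to 7.65 ± 0.302 FPKM (adjusted p = 0.0119 and 0.0147). The call for Prim2 was lost without control library 2. Pola2, the accessory subunit of polymerase alpha, read 5.17, 5.22 and 5.73 FPKM in the control libraries and 4.84, 4.75 and 4.52 FPKM in the Fbxw11 libraries (adjusted p = 0.126, log2 fold change -0.16, SE 0.053).

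Polymerase delta is the lagging-strand enzyme. Its catalytic subunit gene Pold1 fell, at 9.85, 9.97 and 10.5 FPKM in the control libraries and 8.15, 7.16 and 7.74 FPKM in the Fbxw11 libraries (adjusted p = 0.0115, log2 fold change -0.36, SE 0.054). Pold2 read 16.8, 17.5 and 18.5 FPKM in the control libraries and 15.8, 15.9 and 16.03 FPKM in the Fbxw11 libraries (adjusted p = 0.0965, log2 fold change -0.14, SE 0.042) and did not pass, with groups that did not overlap. Pold3 read 10.1, 8.90 and 9.11 FPKM in the control libraries and 8.89, 8.63 and 9.52 FPKM in the Fbxw11 libraries (adjusted p = 0.664, log2 fold change -0.048, SE 0.058), with Fbxw11 library 3 above 2 of the 3 control libraries. The level of Pole over that of Pold3 was 0.663, 0.715 and 0.722 in the control libraries and 0.445, 0.485 and 0.423 in the Fbxw11 libraries. Each Fbxw11 library was thus lower than each control library in this ratio, a pair chosen after the values were seen.

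All 6 genes of the clamp and its loader fell. PCNA is the ring that keeps polymerases on DNA, and the replication factor C complex of Rfc1 to Rfc5 opens and loads it. Pcna was the most abundant of the 53 genes and read 84.2, 83.9 and 87.6 FPKM in the control libraries and 68.5, 64.2 and 65.6 FPKM in the Fbxw11 libraries (adjusted p = 0.00323, log2 fold change -0.36, SE 0.037). Processed pseudogene copies could share reads with it, and the sources used here do not say how such reads were counted. Rfc5 read 6.89, 7.09 and 7.54 FPKM in the control libraries and 4.29, 4.51 and 4.75 FPKM in the Fbxw11 libraries (adjusted p = 0.00235, log2 fold change -0.57, SE 0.053). Rfc4 stood at 18.2, 17.4 and 18.4 FPKM in the control libraries and 12.6, 12.3 and 13.6 FPKM in the Fbxw11 libraries (adjusted p = 0.00317, log2 fold change -0.46, SE 0.047). No library of one group entered the range of the other for these 3 genes. Rfc1, Rfc2 and Rfc3 stood at 0.799, 0.805 and 0.778 of their control means (adjusted p = 0.00589, 0.0117 and 0.0256). The call for Rfc2 was lost without control library 2, and that for Rfc3 without control library 2 or 3 or Fbxw11 library 1 or 2.

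The proteins that coat single strands and finish lagging-strand fragments had 3 of 6 genes that fell. Lig1, the ligase that seals the fragments, read 20.6, 21.02 and 22.4 FPKM in the control libraries and 16.3, 14.3 and 15.3 FPKM in the Fbxw11 libraries (adjusted p = 0.00586, log2 fold change -0.46, SE 0.057). Rpa1, the large subunit of the single-strand binding protein RPA, read 23.05, 22.5 and 24.1 FPKM in the control libraries and 19.2, 18.1 and 17.6 FPKM in the Fbxw11 libraries (adjusted p = 0.00843, log2 fold change -0.33, SE 0.045). Rpa2, the middle subunit, read 7.92, 9.49 and 8.71 FPKM in the control libraries and 6.52, 5.02 and 4.67 FPKM in the Fbxw11 libraries (adjusted p = 0.024, log2 fold change -0.61, SE 0.12). Fbxw11 libraries 2 and 3 were lower than library 1 for Rpa2. Its call was lost under each single-library omission except that of Fbxw11 library 1. Rpa3, the small subunit, read 9.64, 9.89 and 7.11 FPKM in the control libraries and 8.16, 7.89 and 5.79 FPKM in the Fbxw11 libraries (adjusted p = 0.364, log2 fold change -0.26, SE 0.15). Library 3 was the lowest of each group for Rpa3, and the groups overlapped. With the replicate number of the labels as a block Rpa3 passed (adjusted p = 0.0462).

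Of the nucleases, Dna2 read 3.26, 3.04 and 2.84 FPKM in the control libraries and 2.39, 2.64 and 2.58 FPKM in the Fbxw11 libraries (adjusted p = 0.116, log2 fold change -0.19, SE 0.063). Fen1, the flap endonuclease, read 1.51, 1.37 and 1.36 FPKM in the control libraries and 0.837, 0.995 and 1.36 FPKM in the Fbxw11 libraries (adjusted p = 0.238, log2 fold change -0.23, SE 0.11). Neither passed, and the groups did not overlap for either, although for Fen1 the gap was under 0.01 FPKM. Fen1 had the lowest level of the 53 genes, with 33 reads in its lowest library. Its start lies close to that of Tmem258 on the opposite strand, and their spans overlap.

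The 5 genes of fork protection and chromatin assembly all fell. Tipin and Timeless encode a pair of proteins that travel with the fork and stabilize it. Tipin read 29.5, 29.5 and 28.8 FPKM in the control libraries and 20.2, 21.3 and 19.2 FPKM in the Fbxw11 libraries (adjusted p = 0.00175, log2 fold change -0.51, SE 0.044). Wdhd1, the And-1 protein that ties polymerase alpha to the helicase, read 4.58, 4.28 and 4.004 FPKM in the control libraries and 2.72, 2.55 and 2.49 FPKM in the Fbxw11 libraries (adjusted p = 0.00348, log2 fold change -0.56, SE 0.060). Chaf1a, the large subunit of the histone chaperone CAF-1, read 3.71, 3.48 and 4.02 FPKM in the control libraries and 2.39, 2.30 and 2.51 FPKM in the Fbxw11 libraries (adjusted p = 0.00704, log2 fold change -0.48, SE 0.062). Groups were apart for these 3 genes by more than the range within either group. Timeless went from 9.95 ± 0.576 to 7.66 ± 0.310 FPKM (adjusted p = 0.0127) and Chaf1b, the middle subunit of CAF-1, from 6.08 ± 0.677 to 4.30 ± 0.352 FPKM (adjusted p = 0.029). The call for Chaf1b was lost under each single-library omission except that of Fbxw11 library 3.

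**Figure D3:**
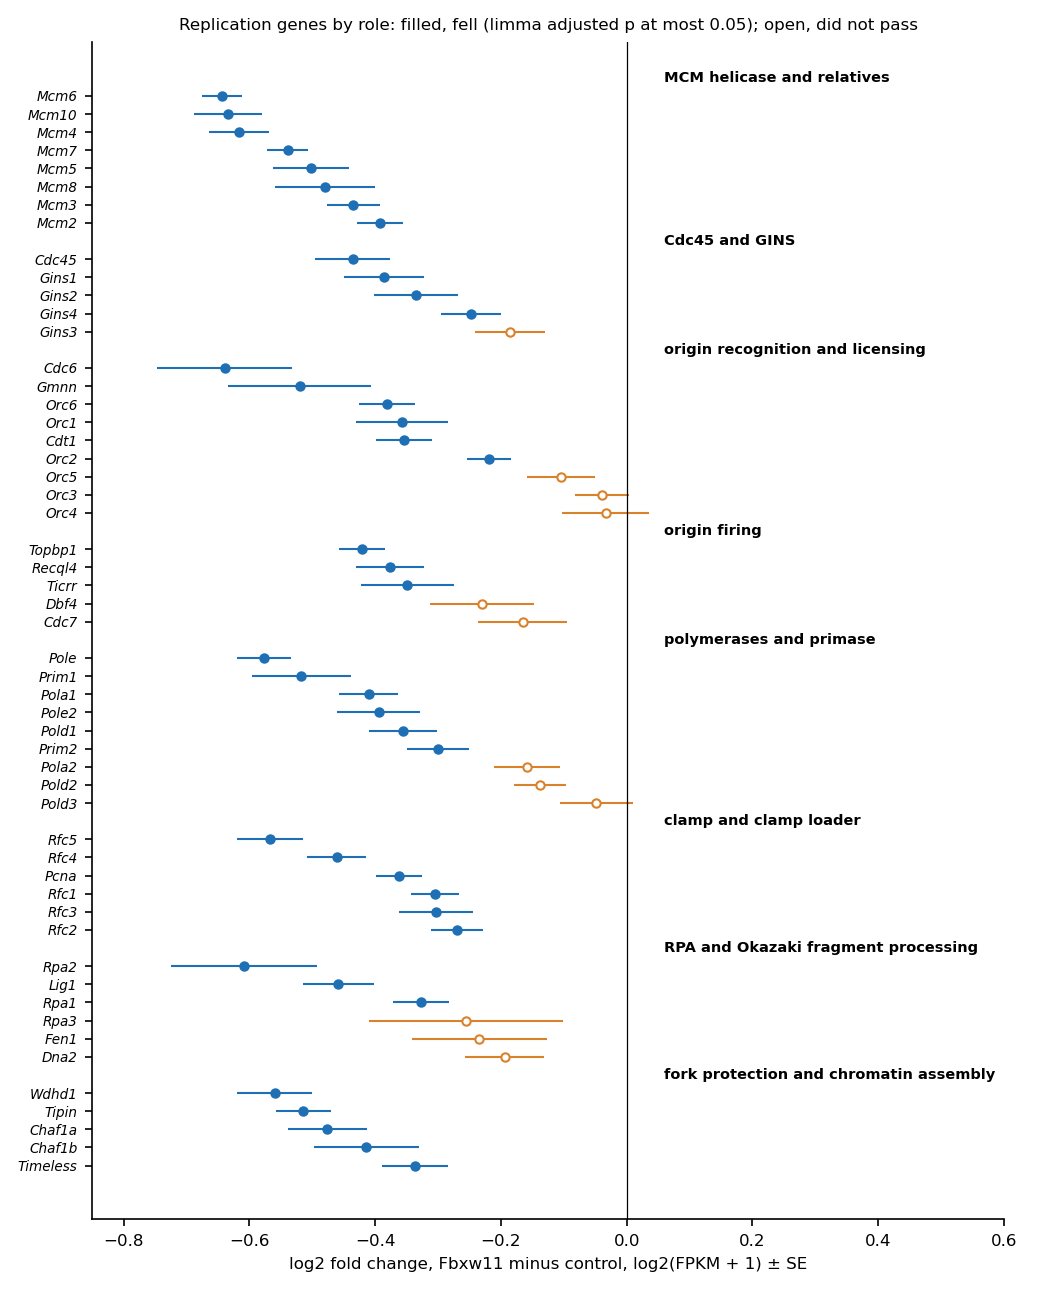
Log2 fold change (Fbxw11 minus control, log2(FPKM + 1)) of each of the 53 genes with its SE as a bar, grouped by role, filled blue where the gene fell and open orange where it did not pass. The 8 Mcm genes drawn lie between -0.64 and -0.39, while Orc3, Orc4 and Pold3 lie within 0.05 of 0.

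A further list held other genes of replication, taken by role but with earlier results of these data known, so its counts are a description. Of 30 such genes, among them fork, histone chaperone and topoisomerase genes, 28 were tested, 15 fell and 0 rose, against 4.64% and 4.60% over all genes tested, with a median log2 fold change of -0.21. Without control library 1 or 2 the number that fell was 8, and without control library 3 or Fbxw11 library 1 it was 9. In these 4 fits, in that order, 2.14%, 2.01%, 3.34% and 2.81% of all genes tested fell. Clspn, the checkpoint mediator claspin and itself a known substrate of β-TrCP, read 6.13, 5.34 and 5.12 FPKM in the control libraries and 2.96, 3.27 and 3.09 FPKM in the Fbxw11 libraries (adjusted p = 0.00345, log2 fold change -0.67, SE 0.070). Top2a, topoisomerase II alpha, read 24.9, 23.7 and 21.97 FPKM in the control libraries and 14.5, 15.9 and 15.1 FPKM in the Fbxw11 libraries (adjusted p = 0.00234, log2 fold change -0.60, SE 0.056). Dtl, the substrate receptor that directs the breakdown of Cdt1, went from 5.40 ± 0.0792 to 3.76 ± 0.160 FPKM (adjusted p = 0.00348, log2 fold change -0.43, SE 0.046). Ssrp1, of the histone chaperone FACT, went from 69.2 ± 1.91 to 57.2 ± 0.830 FPKM (adjusted p = 0.00577, log2 fold change -0.27, SE 0.033). Its partner Supt16 stood at 43.9 ± 0.639 and 40.4 ± 1.48 FPKM (adjusted p = 0.108) and passed on the TPM scale (adjusted p = 0.0479). Topors, a ubiquitin and SUMO ligase that binds topoisomerase I, read 16.7, 17.4 and 19.1 FPKM in the control libraries and 17.6, 16.1 and 17.3 FPKM in the Fbxw11 libraries (adjusted p = 0.612).

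Polymerases of damage bypass and repair served as a set that copies DNA outside the main fork, also listed with earlier results known. Of 12 genes 11 were tested, 1 fell and 0 rose, near the 4.64% that fell over all genes, and their median log2 fold change was -0.056. The gene that fell was Polq, polymerase theta of end joining, at 2.06, 2.09 and 1.84 FPKM in the control libraries and 1.38, 1.03 and 1.18 FPKM in the Fbxw11 libraries (adjusted p = 0.0235, log2 fold change -0.45, SE 0.085). Its call was lost without control library 1 or 2 or Fbxw11 library 2 or 3. Polb, of base excision repair, stood at 6.04 ± 0.368 and 5.05 ± 0.527 FPKM (adjusted p = 0.134). The bypass polymerase genes Polk and Polh stood at 5.18 ± 0.218 and 4.77 ± 0.233 FPKM and at 3.85 ± 0.278 and 3.54 ± 0.125 FPKM (adjusted p = 0.293 and 0.388). Whether this set and the 53 genes differ was not tested.

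Many replication genes lie head to head with another gene, which gave a comparison within the same stretch of chromatin. In the file's own coordinates, 17 of the 53 had a protein-coding neighbour on the opposite strand whose start lay within 1000 bases, 18 neighbours in all, of which 15 were tested. None of the 15 changed in the limma test, 2 had an unadjusted p under 0.05, and voom on recovered reads also called 0. Over all genes tested 9.24% changed, so a count of 0 among 15 is near the background. After centring each library on its median, 1 passed, Smyd4 (adjusted p = 0.0457). Their log2 fold changes ran from -0.15 to 0.17 with a median of 0.0034. The 15 replication genes beside them had a median of -0.38, and 10 of them fell. This comparison was added after the data were seen, and the difference between the replication genes and their neighbours was not tested. Spans overlapped for Cdc45 and Ufd1, Fen1 and Tmem258, Mcm7 and Ap4m1, Orc4 and Mbd5, and Orc6 and Vps35. Reads from the shared stretches of these pairs cannot be told apart without strand.

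Library values are given for 4 of these neighbours. Prkdc, the DNA-dependent protein kinase gene beside Mcm4, read 4.43, 4.04 and 3.90 FPKM in the control libraries and 3.50, 3.72 and 3.76 FPKM in the Fbxw11 libraries (adjusted p = 0.211, log2 fold change -0.14, SE 0.058). Ufd1, a cofactor of the p97 ATPase beside Cdc45, read 19.7, 19.3 and 19.3 FPKM in the control libraries and 19.8, 19.99 and 19.7 FPKM in the Fbxw11 libraries (adjusted p = 0.676, log2 fold change 0.024, SE 0.031). Vps35, a retromer subunit gene beside Orc6, read 33.8, 33.95 and 33.8 FPKM in the control libraries and 32.5, 34.6 and 32.8 FPKM in the Fbxw11 libraries (adjusted p = 0.73, log2 fold change -0.023, SE 0.035). In each pair the replication gene had fallen and its neighbour did not pass. Smyd4, beside Rpa1, read 8.05, 8.21 and 8.21 FPKM in the control libraries and 9.81, 9.27 and 8.89 FPKM in the Fbxw11 libraries (adjusted p = 0.0642, log2 fold change 0.17, SE 0.045), on the opposite side of 0 from Rpa1.

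**Figure D4:**
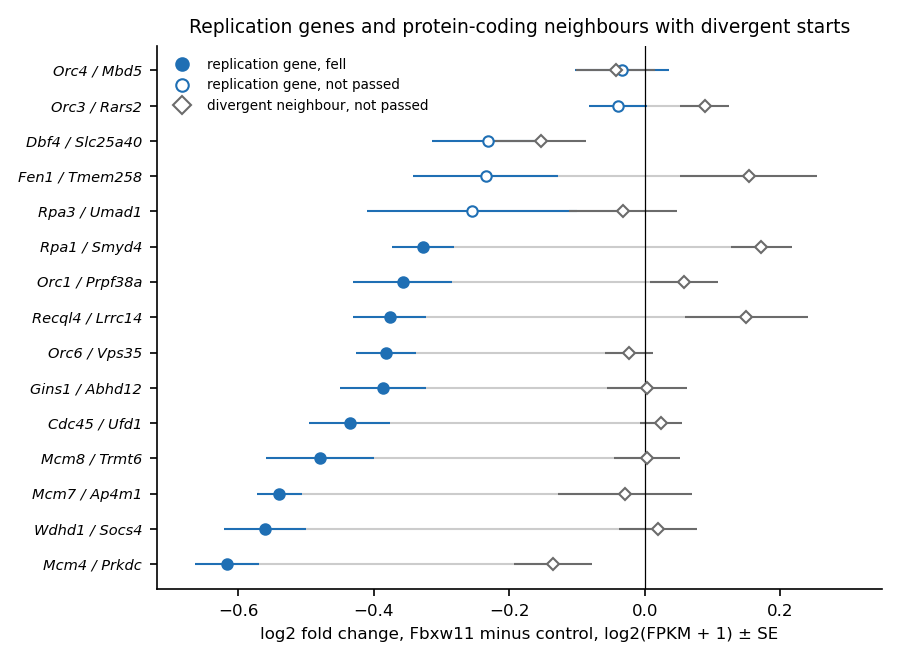
Log2 fold change with SE (Fbxw11 minus control, log2(FPKM + 1)) of 15 replication genes (blue circles, filled where they fell) and of the protein-coding neighbour with a divergent start (grey diamonds), 1 pair per line. The 10 filled circles lie between -0.62 and -0.33, and the diamonds between -0.15 and 0.17.

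Overlapping spans limit some of these values, since the sources used here do not say whether the libraries marked strand. Of the 53 genes, 15 overlapped the span of another gene listed at 1 FPKM or more in some library, 13 of them on the opposite strand. Reads from shared stretches of such pairs cannot be told apart without strand. Of the 38 genes free of such overlap 29 fell, and of the 15 others 12 fell. Among the 19 overlapping genes 1 rose, Wsb2 beside Rfc5, and 0 fell. Some of the 19, such as Gm22887 and Gm24378, were not tested. Over all genes tested 4.60% rose and 4.64% fell.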

How the data were processed

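Total RNA of sorted RAW264.7 cells was sequenced in 6 libraries, 3 per vector. The deposited table holds FPKM that the authors computed per gene, per the file headers. The submitters' processing notes name mm10. Aligner, counting tool, annotation release and filters are items not given in the sources used here. As library size, the authors divided by 1.014 to 1.018 of the plain sum of recovered reads in control and 0.987 to 0.993 of it in Fbxw11 libraries. Whole reads were recovered from FPKM and gene length to show depth and for a voom fit. The main test was limma 3.58.1 in R 4.3.3 (mean-variance trend, two-sided, no covariate) on log2(FPKM + 1) over the 10898 genes whose mean level was 1 FPKM or more, with Benjamini-Hochberg adjustment. The fit was also run on simulated reads, with independent libraries and the same relative spread for every gene. That run does not show whether the p-values hold if the libraries of a group are technical. The members, the role groups and the other lists were chosen with earlier results of these data known. In each role group, library values are given for the 3 members with the smallest p and for members that did not pass. From the other lists the 4 smallest p and the 2 most abundant that did not pass are named. Protein motifs were not searched, and 10 members had no promoter window in the table used. Intervals from reads would cover counting error only, since reads are not independent molecules.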

Additional observations from a re-analysis of the deposited data

How the results depend on the processing

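Across 17 alternatives none of the 53 replication genes rose, and the 41 that fell kept their sign in each. Of the 41, 23 kept the call in every alternative that tested them. The number of members that fell lay between 30 and 42 under settings that kept all 6 libraries, between 26 and 36 with a single library left out, and at 27 without both libraries numbered 3. Over all genes tested the shares that fell were, in the same order, 1.21% to 6.86%, 2.01% to 3.51% and 3.08%. Genes changed over all genes numbered 596 without a filter on low values, with 25297 genes tested, and 409 to 801 with a library left out. Other replication genes that fell numbered 9 at a mean of at least 5 FPKM, where fewer were tested, and 8 to 13 with a library left out. The members' median log2 fold change ran from -0.35 to -0.45. The sign turned for Orc4 without Fbxw11 library 1 (0.0334, with -0.0767 as the other end of the range over single-library omissions) and for Ufd1 on the TPM scale (-0.0174) and over plain read sums (-0.0111). The cause of these shifts was not tested.

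Same-numbered libraries did not clearly pair, with correlations of their deviations from the group means of 0.036, 0.041 and 0.19. With the replicate number as a block, 621 genes changed and 37 members fell, 36 of them among the 41, and 12 of the other replication genes fell. The lowest library of a member held 33 reads, for Fen1, and the part of depth in the calls was not tested.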

Other observations

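Mcm9, Pole3 and Pole4, partners of replication genes that fell, did not pass the test, and they were named after their values were seen. Mcm9 forms a helicase of recombination repair with Mcm8. It read 5.65, 5.87 and 5.41 FPKM in the control libraries and 5.89, 6.34 and 6.32 FPKM in the Fbxw11 libraries (adjusted p = 0.219, log2 fold change 0.11, SE 0.049), so that every Fbxw11 library lay above every control library without passing the test. The level of Mcm8 over that of Mcm9 was 0.935, 0.981 and 0.994 in the control libraries and 0.625, 0.646 and 0.505 in the Fbxw11 libraries. Each Fbxw11 library was below each control library in this ratio. That follows from Mcm8 being lower and Mcm9 higher in every Fbxw11 library, and the ratio is given as a description.

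Pole3 and Pole4 encode the histone-fold subunits of polymerase epsilon, which are also found outside the fork. Pole3 read 17.9, 15.99 and 17.5 FPKM in the control libraries and 15.5, 14.6 and 16.7 FPKM in the Fbxw11 libraries (adjusted p = 0.27, log2 fold change -0.13, SE 0.063). Pole4 read 16.4, 15.9 and 15.98 FPKM in the control libraries and 19.6, 18.5 and 16.4 FPKM in the Fbxw11 libraries (adjusted p = 0.183, log2 fold change 0.16, SE 0.064) and passed without Fbxw11 library 3 (adjusted p = 0.0379). The groups overlapped for both. The level of Pole over that of Pole3 was 0.372, 0.398 and 0.375 in the control libraries and 0.255, 0.287 and 0.241 in the Fbxw11 libraries, lower in every Fbxw11 library. This pair of a gene that fell and a partner that did not pass was chosen after the values were seen. The ratio is given as a description.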
